A study of Arabidopsis thaliana with 32 samples.

Results

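A set of 10 WRKY genes known from stress responses was followed through roots and rosettes of Arabidopsis thaliana seedlings. These are 10 of the 33607 genes in the deposited tables, chosen by name and gene identifier for their known roles. Earlier results of these data were known when they were chosen. The members are WRKY46 (AT2G46400), WRKY53 (AT4G23810), WRKY70 (AT3G56400), WRKY54 (AT2G40750), WRKY18 (AT4G31800), WRKY40 (AT1G80840), WRKY33 (AT2G38470), WRKY38 (AT5G22570), WRKY75 (AT5G13080) and WRKY30 (AT5G24110). All 10 were listed in every table. In rosettes all 10 passed the filter on low values, a mean of at least 0.5 RPKM (reads relative to transcript length and to the size of the library) over the 16 libraries of a tissue. In roots 9 passed, because WRKY30 averaged 0.411 RPKM there. No header or label names the unit, which was read from the values.

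The study sequenced poly-A RNA from 4 lines, none of them a plain wild type. IMA1 OE and IMA3 OE carry the reading frame of an IRON MAN peptide gene, and EYFP OE, the control line, carries a yellow fluorescent protein, each in the vector pH2GW7 behind the constitutive 35S promoter. The opt3-2 plants are the T-DNA line Salk_021168, with an insertion at OPT3, a phloem transporter of iron. Seedlings spent 10 days on full medium under continuous light, 25 to a plate, then 72 h on either iron-deficient medium with the chelator ferrozine or full medium (control medium). The labels give ferrozine at 100 µM in one place and 300 µM in another, and they name the source of rosette samples as roots although titles and tissue fields say rosettes. Each of the 16 combinations of line, medium and tissue had 2 libraries, and the labels do not say whether these came from separate cultures, nor how many transgenic events each line represents. P-values therefore measure only the spread between these libraries, which may be technical.

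WRKY proteins are plant transcription factors that bind W boxes, short DNA elements with a TTGAC core, and many WRKY genes carry W boxes in their own promoters. WRKY46, WRKY53, WRKY70 and WRKY54 belong to group III of the family and act around salicylic acid, the hormone of defence against biotrophic pathogens. WRKY18 and WRKY40 are partly redundant repressors of early immune responses, and WRKY33 activates camalexin synthesis against necrotrophs. WRKY46 has also been described in roots as a repressor of VTL1, which encodes a vacuolar iron transporter-like protein, under iron deficiency.

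The construct transcripts matched the labels. Transcripts of the inserted constructs stood at 199 RPKM or more in every IMA1 OE library, at 26.7 or more in IMA3 OE and at 131 or more in EYFP OE, and no construct exceeded 0.705 RPKM in a library of another line. The opt3-2 T-DNA was low in its own line, at 0.225 to 2.025 RPKM in roots and 0.68 to 2.395 RPKM in rosettes. In other lines it reached at most 0.06 RPKM in roots and 0.09 RPKM in rosettes. The IMA3 gene itself was at 14.8 and 12.7 RPKM in IMA3 OE rosettes against 48.3 and 9.85 RPKM in EYFP rosettes on control medium, so the overexpression shows in the construct and not in the gene's own row there. In opt3-2 rosettes on control medium OPT3 had 3.92 and 3.115 RPKM, against 70.9 and 43.3 RPKM in EYFP. The 5 root markers summed to 353 to 557 RPKM in roots and 5.36 to 10.46 RPKM in rosettes, and the 5 leaf markers to 59.2 to 246 RPKM in roots and 15667 to 23072 RPKM in rosettes. Depth per library is unknown, because the tables hold no counts. RNA integrity per the labels was 9.8 to 10 for roots and 8.3 to 8.7 for rosettes.

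The promoters of the members differ in how many W boxes lie close to the gene start, and those with such boxes are shown because WRKY proteins bind these letters. The letters TTGACC and TTGACT were searched on both strands (GGTCAA and AGTCAA on the other) in the 250 bases upstream of the annotated start, in the RefSeq sequence and annotation of build TAIR10.1. At least 1 was found for 4 of the 10 members (40.0%), against 28.4% of 27443 protein-coding promoters, and 2 or more for 3 members (30.0%), against 6.18% of those promoters. The stretches below run 5′ to 3′ on the strand of the gene, with the W boxes in capitals. WRKY53 lies on the minus strand and its stretch is chr4:12394036-12394213. WRKY33 lies on the plus strand with chr2:16108127-16108220, WRKY30 on the minus strand with chr5:8154754-8154846 and WRKY75 on the minus strand with chr5:4151202-4151224.
WRKY53: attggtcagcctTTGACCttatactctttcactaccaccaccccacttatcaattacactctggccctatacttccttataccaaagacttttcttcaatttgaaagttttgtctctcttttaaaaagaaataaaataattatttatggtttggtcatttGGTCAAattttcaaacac
WRKY33: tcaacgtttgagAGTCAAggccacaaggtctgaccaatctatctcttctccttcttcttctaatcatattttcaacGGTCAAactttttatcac
WRKY30: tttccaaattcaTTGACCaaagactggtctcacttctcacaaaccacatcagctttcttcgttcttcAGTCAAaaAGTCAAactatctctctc
WRKY75: gcctcttcgtctTTGACTtcata
The boxes of WRKY53 begin 219 and 71 bases upstream of the start, those of WRKY33 at 96 and 32 bases, those of WRKY30 at 124, 69 and 61 bases, and that of WRKY75 at 11 bases. The same letters were not in this window for WRKY46, WRKY70, WRKY54, WRKY18, WRKY40 or WRKY38, nor for VTL1. A match describes the sequence only, since binding was not measured.

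The order of the members by level was not the same in the 2 tissues. In rosettes WRKY70 was the most abundant member, with a lowest library at 41.5, a median of 91.2 and a highest at 210 RPKM over 16 libraries. WRKY33 followed with a median of 59.2 RPKM (23.1 to 87.4), then WRKY18 with 36.2 (11.5 to 96.9), WRKY40 with 28.4 (11.9 to 51.9) and WRKY46 with 19.4 (7.48 to 41.5). WRKY53 had a median of 11.0 RPKM (4.19 to 17.8) and WRKY54 of 10.0 (2.69 to 21.8), while WRKY38 (2.16), WRKY75 (1.02) and WRKY30 (0.868) were low. The ranges of neighbours in this order overlap throughout. In roots WRKY33 stood highest, with a median of 31.6 RPKM (24.9 to 50.0), above every value of the other members. WRKY75, known from phosphate starvation and root development, had a median of 12.2 RPKM in roots (8.16 to 19.5), where WRKY46 and WRKY18 had 11.0 and 10.9 RPKM. Root WRKY70 stayed between 3.58 and 9.13 RPKM. Levels in the 2 tissues come from separate tables and were not tested against each other.

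On control medium, the question is whether the 3 lines differ from EYFP when iron is present. In rosettes the set stood higher in all 3 lines than in EYFP, and WRKY46 in opt3-2 was the only member to pass the test. WRKY46 had 25.1 and 41.5 RPKM in opt3-2, against 7.48 and 7.53 RPKM in EYFP. It rose by a log2 fold change of 2.03 (SE 0.32, n = 2 each, limma adjusted p = 0.0409). WRKY46 was at 29.8 and 33.7 RPKM in IMA1 OE (log2 fold change against EYFP 1.97, SE 0.32, adjusted p = 0.0731) and at 26.8 and 16.2 RPKM in IMA3 OE (1.42, SE 0.32, adjusted p = 1). Every library of the 3 lines lay above both EYFP libraries for this gene. The 3 comparisons use the same 2 EYFP libraries, so their values are not independent of each other. The WRKY46 call in opt3-2 ended without EYFP control replicate 1 (adjusted p = 0.265), EYFP control replicate 2 (0.218) or opt3-2 control replicate 2 (0.491), and the log2 fold change then lay between 1.67 and 2.03. It also ended with no filter on low values (adjusted p = 0.136) and when the spread was taken from the 4 compared libraries only (0.456). A replicate block treats libraries of equal number as belonging together, which the labels do not state. With it WRKY46 in IMA1 OE and WRKY30 in opt3-2 were called as well. In bulk tissue, more RNA of a gene per cell and more cells that contain it cannot be told apart.

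WRKY53, WRKY70 and WRKY54 had the same direction as WRKY46 without passing the test. WRKY53, a promoter of leaf senescence, had 17.8 and 14.1 RPKM in IMA1 OE, 16.2 and 10.3 in IMA3 OE, 11.4 and 15.0 in opt3-2, and 4.86 and 4.34 in EYFP rosettes. WRKY70, which balances salicylic and jasmonic acid signalling, had 155 and 146 RPKM in IMA1 OE, 91.4 and 123 in IMA3 OE, 90.2 and 98.4 in opt3-2, and 62.0 and 51.4 in EYFP. For both genes no library of a line overlapped EYFP. WRKY53 had log2 fold changes of 1.65 (SE 0.46, adjusted p = 0.346) in IMA1 OE, 1.404 (adjusted p = 1) in IMA3 OE and 1.41 (adjusted p = 0.378) in opt3-2. WRKY70 had 1.39 (SE 0.36, adjusted p = 0.289) in IMA1 OE, 0.90 (adjusted p = 1) in IMA3 OE and 0.74 (adjusted p = 0.674) in opt3-2. WRKY54, a close relative of WRKY70 and like it a negative regulator of senescence, had 16.2 and 11.3 RPKM in IMA1 OE, 10.1 and 7.73 in IMA3 OE, 13.0 and 10.4 in opt3-2, and 8.04 and 2.69 in EYFP. Here the EYFP libraries were 2.99-fold apart and IMA3 OE overlapped them.

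**Figure D1:**
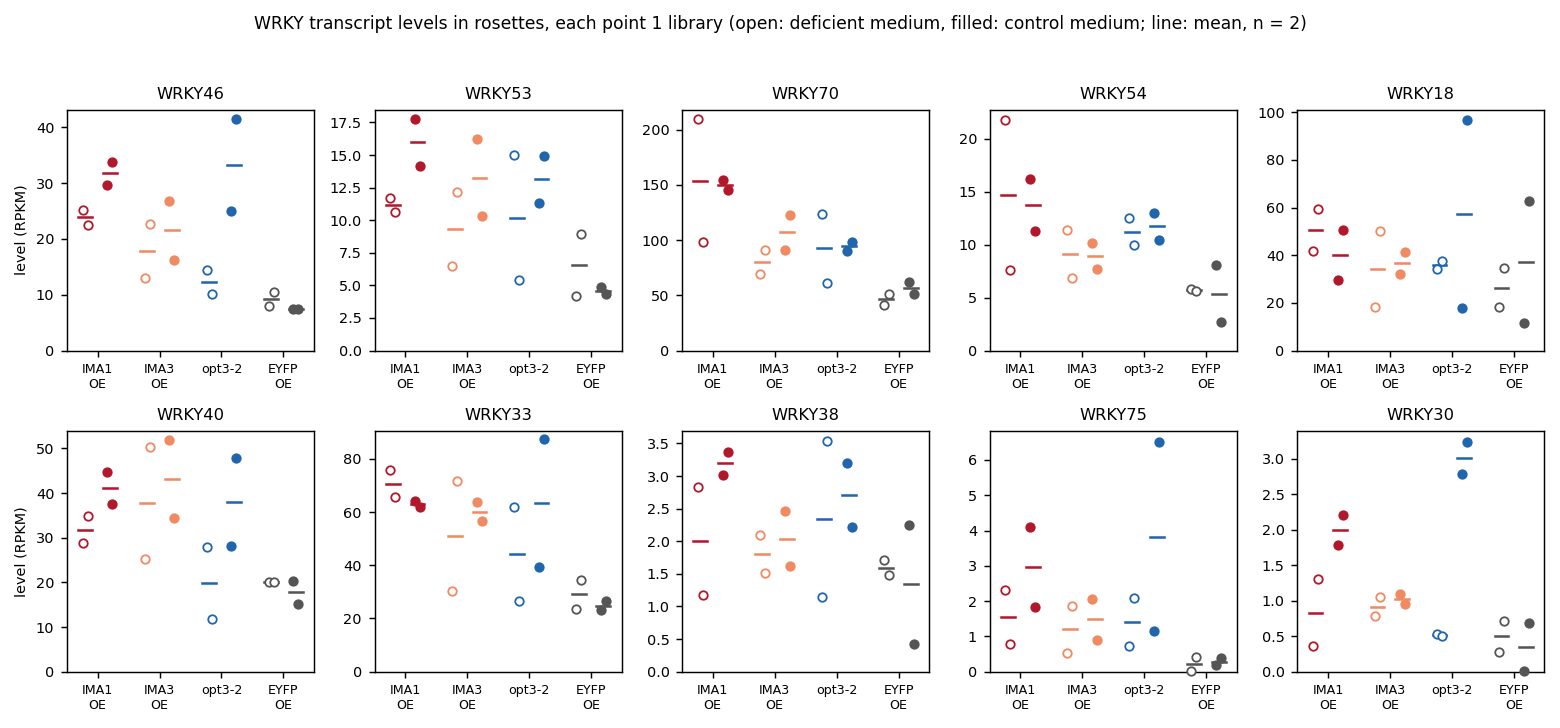
RPKM of each WRKY gene in rosettes (vertical axes, one panel a gene, starting at 0) by line, with open points for deficient and filled points for control medium, 1 point a library and a bar at the mean (n = 2). The filled points of WRKY46 lie at 16.2 RPKM or above in IMA1 OE, IMA3 OE and opt3-2 and at 7.48 and 7.53 RPKM in EYFP OE.

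Among the members tied to early immunity, WRKY33 had 64.2 and 61.7 RPKM in IMA1 OE, 63.7 and 56.7 in IMA3 OE, 39.5 and 87.4 in opt3-2, and 23.1 and 26.6 in EYFP rosettes on control medium. WRKY40 had 44.8 and 37.5 RPKM in IMA1 OE, 51.9 and 34.4 in IMA3 OE, 28.0 and 47.8 in opt3-2, and 20.3 and 15.2 in EYFP. Both genes were above EYFP in every library of the 3 lines, and neither passed the test in a line: WRKY33 had log2 fold changes of 1.31, 1.27 and 1.24 (SE 0.47) in IMA1 OE, IMA3 OE and opt3-2, and WRKY40 of 1.17, 1.24 and 1.04 (SE 0.42). The lowest adjusted p among these 6 values was 0.495, for WRKY33 in opt3-2. WRKY18 had 29.7 and 50.8 RPKM in IMA1 OE, 32.1 and 41.2 in IMA3 OE, 18.0 and 96.9 in opt3-2, and 11.5 and 62.8 in EYFP. Its EYFP libraries were 5.45-fold apart, all 3 lines overlapped them, and its log2 fold changes of 0.49, 0.42 and 0.62 had an SE of 0.85.

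The remaining members were weakly expressed in rosettes. WRKY30, known to respond to oxidative stress, had 1.79 and 2.22 RPKM in IMA1 OE, 1.095 and 0.955 in IMA3 OE, 2.79 and 3.24 in opt3-2, and 0.01 and 0.689 in EYFP on control medium. No line overlapped EYFP, and opt3-2 had the largest difference, with a log2 fold change of 2.15 (SE 0.41, adjusted p = 0.0908) on the log2(RPKM + 0.5) scale, which understates changes of low genes. WRKY75 had 4.11 and 1.82 RPKM in IMA1 OE, 2.07 and 0.90 in IMA3 OE, 1.15 and 6.51 in opt3-2, and 0.187 and 0.389 in EYFP. It stood above EYFP in every library of the lines, with replicates far apart within each line (log2 fold changes 2.04 in IMA1 OE, 1.26 in IMA3 OE and 2.09 in opt3-2, SE 0.72, lowest adjusted p 0.424). WRKY38, described with WRKY62 as a negative regulator of basal defence, had 3.02 and 3.37 RPKM in IMA1 OE, 2.47 and 1.62 in IMA3 OE, 3.20 and 2.23 in opt3-2, and 2.26 and 0.429 in EYFP, with overlap in IMA3 OE and opt3-2.

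Counted over the set, all 10 members had a log2 fold change above 0 in each line on control medium, against 41.3% of all 19521 tested genes in IMA1 OE, 43.4% in IMA3 OE and 38.5% in opt3-2. The members were chosen with earlier results of these data known, so these shares describe the set and do not test it. The medians of the set were 1.39, 1.101 and 1.22, beside medians over all tested genes of -0.04, -0.02 and -0.05. In IMA1 OE 9 members were higher without overlap (13.1% of all genes), in IMA3 OE 7 (12% of all genes) and in opt3-2 8 (12.6% of all genes). By limma with adjustment 0 members were called in IMA1 OE (0.0205% of all genes called higher), 0 in IMA3 OE (0% of all genes) and 1 in opt3-2 (0.143% of all genes). At an unadjusted p under 0.05 the members higher numbered 9 in IMA1 OE (3.73% of all genes), 6 in IMA3 OE (1.68%) and 7 in opt3-2 (4.66%). After the same adjustment, the authors' deposited table called WRKY70, WRKY33 and WRKY46 in IMA1 OE (3 members, 0.42% of all genes higher), WRKY70 in IMA3 OE (1 member, 0.159%) and WRKY33 and WRKY46 in opt3-2 (2 members, 0.671%).

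**Figure D2:**
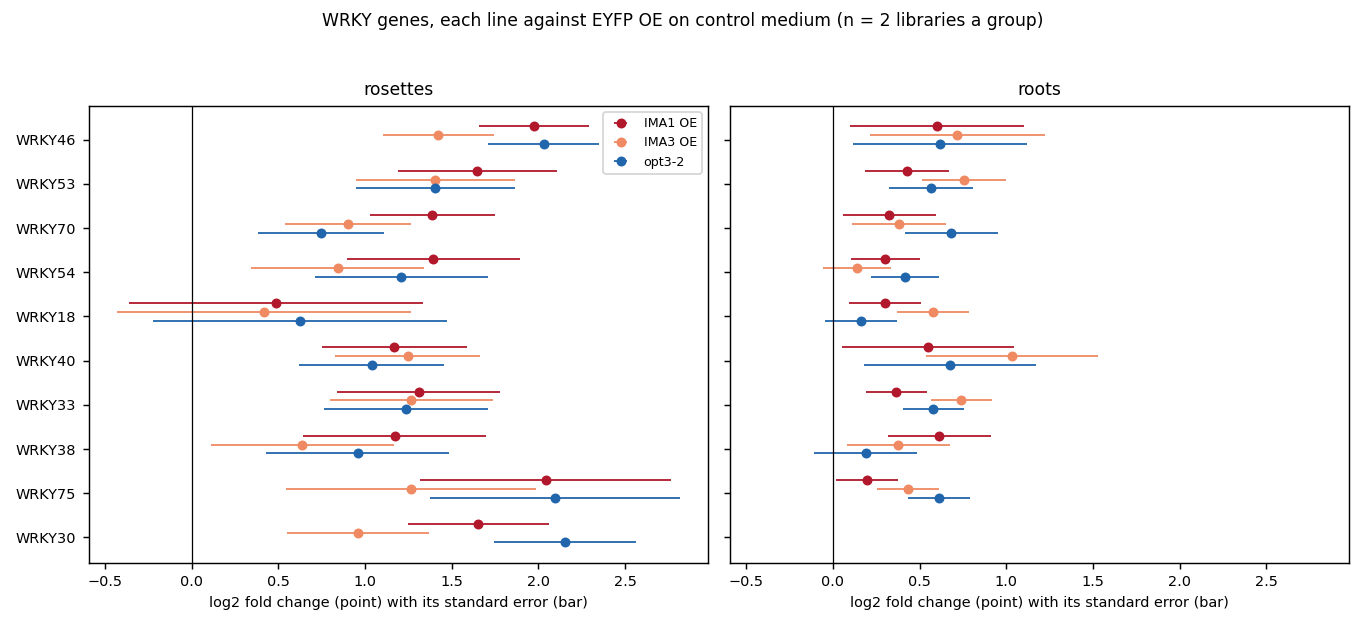
Log2 fold change of each WRKY gene (rows) in IMA1 OE, IMA3 OE and opt3-2 against EYFP OE on control medium, with its standard error, in rosettes (left) and roots (right). All points lie right of 0; in rosettes they reach 2.15 (WRKY30 in opt3-2) and in roots 1.03 (WRKY40 in IMA3 OE), and WRKY30 was not tested in roots.

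Genes known to respond within minutes to touch and wounding were counted beside the set. The 11 listed handling-responsive genes, such as TCH4, ZAT12 and ERF104, summed to 1163 and 1308 RPKM in IMA1 OE rosettes, 1118 and 1236 in IMA3 OE, 722 and 1488 in opt3-2, and 589 and 1018 in EYFP on control medium. All 11 had a log2 fold change above 0 in each line (41.3%, 43.4% and 38.5% of all genes), with medians of 0.69, 0.71 and 0.35. Limma called 0 of them (0.0205%, 0% and 0.143% of all genes called higher). At an unadjusted p under 0.05, 3, 5 and 1 were higher (3.73%, 1.68% and 4.66% of all genes). In opt3-2 library 2 had the higher handling sum, and it was also the higher of the pair for every member except WRKY54 and WRKY38. In EYFP library 2 again had the higher sum, and WRKY18, WRKY33, WRKY75 and WRKY30 were higher in it, WRKY46 was at 7.48 and 7.53 RPKM, and WRKY53, WRKY70, WRKY54, WRKY40 and WRKY38 were lower. In IMA1 OE and IMA3 OE library 2 had the higher sum as well. In IMA1 OE WRKY46, WRKY18, WRKY38 and WRKY30 were higher in it and the other members were lower. In IMA3 OE WRKY70 and WRKY18 were higher in it and the other members were lower, with WRKY46 at 26.8 and 16.2 RPKM. The part of handling in the WRKY values was not tested.

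Genes that act with these WRKY factors in defence were counted in the same rosettes. The list of 23 holds salicylic acid synthesis genes (SID2, EDS5, PBS3), signalling genes (EDS1, PAD4, NPR1), outputs (PR1, PR2, PR5, PAD3) and kinases and partners of WRKY proteins, and 21 were tested in rosettes. On control medium 19 of 21 had a log2 fold change above 0 in IMA1 OE (median 0.79), 18 in IMA3 OE (median 0.44) and 20 in opt3-2 (median 0.93). Of all genes 41.3%, 43.4% and 38.5% were above 0. Limma called 0 of the 21 in these lines (0.0205%, 0% and 0.143% of all genes called higher). At an unadjusted p under 0.05, 11, 2 and 12 were higher (3.73%, 1.68% and 4.66% of all genes). SIB1, whose protein binds WRKY33, is one named after its values were seen. It had 61.1 and 52.1 RPKM in IMA1 OE, 44.8 and 40.5 in IMA3 OE, 43.4 and 53.5 in opt3-2, and 28.3 and 16.7 in EYFP, with adjusted p = 0.108 in IMA1 OE and 0.12 in opt3-2.

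On deficient medium, the difference between the lines and EYFP was tested again with iron withheld from both. In rosettes WRKY46 had 25.2 and 22.5 RPKM in IMA1 OE, 13.0 and 22.7 in IMA3 OE, 14.5 and 10.1 in opt3-2, and 7.90 and 10.4 in EYFP. IMA1 OE and IMA3 OE did not overlap EYFP and opt3-2 did, and the log2 fold changes were 1.35 (SE 0.32, adjusted p = 0.149), 0.90 (adjusted p = 1) and 0.38 (adjusted p = 1). WRKY70 had 210 and 98.2 RPKM in IMA1 OE, 69.5 and 90.9 in IMA3 OE, 124 and 61.5 in opt3-2, and 41.5 and 51.5 in EYFP. It lay above EYFP in every library of the lines, by 1.62 (SE 0.36, adjusted p = 0.118) in IMA1 OE, 0.78 (adjusted p = 1) in IMA3 OE and 0.90 (adjusted p = 1) in opt3-2. The IMA1 OE value was 2.17 (adjusted p = 0.0471) without IMA1 OE deficient replicate 2, its lower library, and 1.08 (adjusted p = 0.719) without replicate 1.

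WRKY33 on deficient medium had 75.7 and 65.6 RPKM in IMA1 OE rosettes, 30.3 and 71.6 in IMA3 OE, 61.7 and 26.4 in opt3-2, and 23.7 and 34.6 in EYFP, so that IMA1 OE alone stood clear of EYFP. WRKY75 had 2.31 and 0.785 RPKM in IMA1 OE, 0.52 and 1.88 in IMA3 OE, 0.73 and 2.09 in opt3-2, and 0.02 and 0.423 in EYFP. Over the set, 8 members in IMA1 OE (14.3% of all genes), 6 in IMA3 OE (10.3%) and 3 in opt3-2 (11%) were higher without overlap. The medians were 1.05, 0.66 and 0.49, beside -0.03, -0.02 and -0.01 over all genes. Beside these all-gene medians just below 0, the handling-responsive genes had medians of 0.46 in IMA1 OE, 0.54 in IMA3 OE and -0.05 in opt3-2, with 10, 11 and 4 of 11 above 0. They summed to 1588 and 1409 RPKM in IMA1 OE, 730 and 1536 in IMA3 OE, 1208 and 793 in opt3-2, and 617 and 891 in EYFP, and their part in the WRKY values was not tested. Limma called 0 members in IMA1 OE (0.307% of all genes called higher), 0 in IMA3 OE (0.0359%) and 0 in opt3-2 (0.0205%), and at an unadjusted p under 0.05 there were 4 (4.08% of all genes), 1 (2.04%) and 1 (1.65%). The authors' deposited table with adjusted p-values called WRKY70 and WRKY33 in IMA1 OE (2 members, 0.615% of all genes), 0 members in IMA3 OE (0.251%) and WRKY70 in opt3-2 (1 member, 0.231%).

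The response to iron deficiency itself was small for this set in EYFP rosettes. Log2 fold changes of deficient against control medium ran from -0.30 (WRKY70) to 0.38 (WRKY53), with a median of 0.22. Limma called 0 members (0.338% of all genes in either direction), 0 passed an unadjusted p under 0.05 (2.53% of all genes) and the authors' deposited table with adjusted p-values gave 0 (0.451%). WRKY46 had 7.90 and 10.4 RPKM on deficient medium against 7.48 and 7.53 RPKM on control medium, without overlap, at a log2 fold change of 0.25 (SE 0.32, adjusted p = 1).

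Within opt3-2 rosettes all 10 members had a log2 fold change below 0 on deficient against control medium (41.8% of all genes), and none passed the test. The median was -0.54 beside 0.03 over all genes, and WRKY54 (-0.07), WRKY70 (-0.14) and WRKY18 (-0.24) lay nearest to 0. WRKY46 was at 14.5 and 10.1 RPKM on deficient medium against 25.1 and 41.5 RPKM on control medium, and WRKY30 at 0.525 and 0.50 RPKM against 2.79 and 3.24 RPKM. The log2 fold changes were -1.40 (SE 0.32, adjusted p = 0.196) for WRKY46, -1.78 (SE 0.41, adjusted p = 0.197) for WRKY30 and -1.01 (SE 0.42, adjusted p = 0.808) for WRKY40. WRKY46 and WRKY30 did not overlap between the media, and WRKY40 had 27.9 and 11.9 RPKM on deficient medium against 28.0 and 47.8 RPKM on control medium. The opt3-2 libraries on control medium are those that stood above EYFP, so this fall and that rise are not independent. With the replicate block, described under processing, WRKY30 was called here. The handling-responsive genes had a median of -0.30 in the same comparison, and their part in these values was not tested. In IMA1 OE and IMA3 OE the medians were -0.36 and -0.26. Over the 3 within-line responses limma called 0 of 30 member values (0.0854% of all gene values in either direction), and 4 were lower at an unadjusted p under 0.05 (1.54%).

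Ordered by mean, WRKY46 in rosettes ran from 33.3 ± 11.6 RPKM in opt3-2 on control medium through 31.7 ± 2.80 in IMA1 OE on control medium, 23.9 ± 1.93 in IMA1 OE on deficient medium, 21.5 ± 7.50 in IMA3 OE on control medium, 17.9 ± 6.84 in IMA3 OE on deficient medium and 12.3 ± 3.11 in opt3-2 on deficient medium to 9.17 ± 1.797 in EYFP on deficient medium and 7.50 ± 0.034 in EYFP on control medium (SD, n = 2 each). Among neighbours in that order, only IMA1 OE on its 2 media and EYFP on its 2 media did not overlap.

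**Figure D3:**
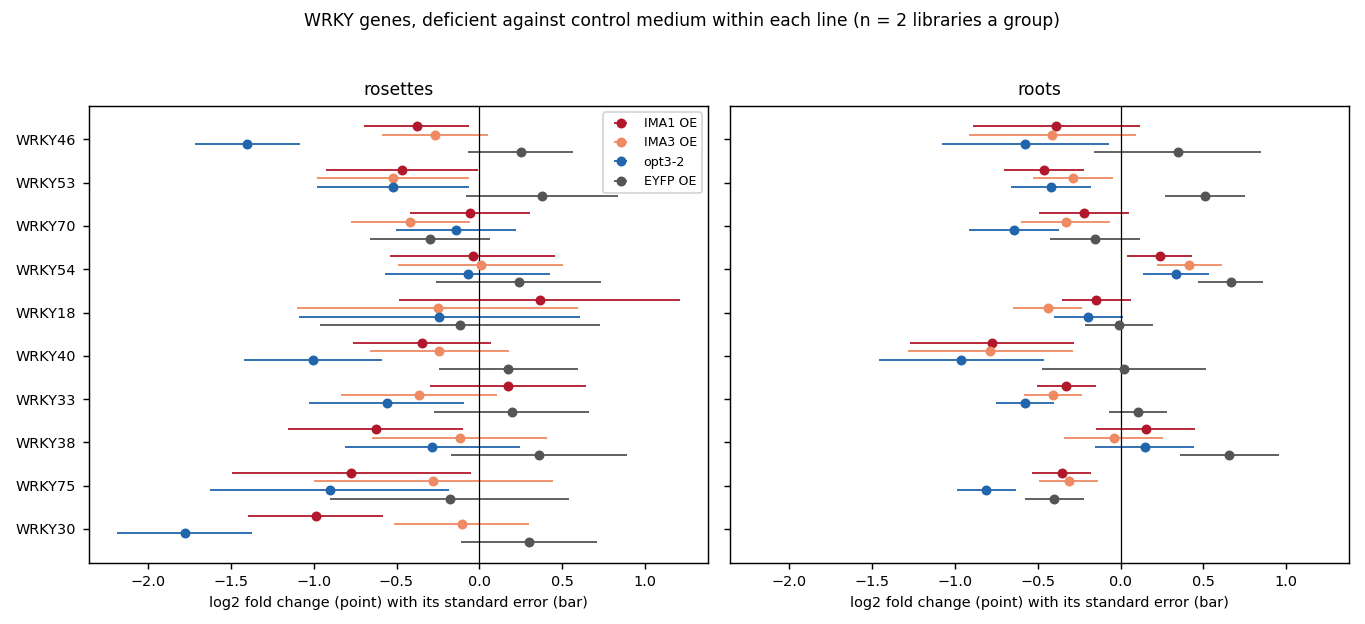
Log2 fold change of each WRKY gene (rows), deficient against control medium, within IMA1 OE, IMA3 OE, opt3-2 and EYFP OE, with its standard error, in rosettes (left) and roots (right). The opt3-2 points of WRKY46 (-1.40) and WRKY30 (-1.78) in rosettes lie farthest left, and the EYFP points of WRKY54 (0.66) and WRKY38 (0.66) in roots farthest right.

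In roots no member passed the test in any comparison. With the replicate block, WRKY54 was called in the EYFP response and WRKY75 within opt3-2. On control medium all 9 tested members had a log2 fold change above 0 in IMA1 OE (46.3% of all 20577 tested genes), IMA3 OE (43.6%) and opt3-2 (43.9%), with medians of 0.37, 0.58 and 0.58 beside -0.01, -0.02 and -0.02 over all genes. WRKY33 had 42.0 and 30.4 RPKM in IMA1 OE, 43.3 and 50.0 in IMA3 OE, 46.2 and 37.4 in opt3-2, and 29.3 and 25.5 in EYFP, with no overlap between a line and EYFP. Its log2 fold changes were 0.37 (SE 0.18, adjusted p = 0.966) in IMA1 OE, 0.74 (adjusted p = 0.249) in IMA3 OE and 0.58 (adjusted p = 0.224) in opt3-2. WRKY75 had 16.7 and 11.4 RPKM in IMA1 OE, 17.1 and 15.8 in IMA3 OE, 19.5 and 17.7 in opt3-2, and 10.9 and 12.9 in EYFP. IMA3 OE and opt3-2 did not overlap EYFP, by 0.43 (SE 0.18, adjusted p = 0.642) and 0.61 (adjusted p = 0.195).

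Replicates of WRKY46 lay far apart in roots. It had 20.0 and 8.26 RPKM in IMA1 OE, 12.3 and 16.1 in IMA3 OE, 18.9 and 8.89 in opt3-2, and 12.3 and 5.48 in EYFP on control medium. All 3 lines overlapped EYFP, replicates were up to 2.42-fold apart, and the log2 fold changes of 0.60, 0.72 and 0.62 had an SE of 0.50. WRKY40 had 19.2 and 7.78 RPKM in IMA1 OE, 13.1 and 23.1 in IMA3 OE, 17.5 and 10.2 in opt3-2, and 11.6 and 5.67 in EYFP. WRKY53 had 6.12 and 5.57 RPKM in IMA1 OE, 6.33 and 8.87 in IMA3 OE, 7.62 and 5.48 in opt3-2, and 4.31 and 4.04 in EYFP, above EYFP in every library. Higher without overlap were 4 members in IMA1 OE (14% of all genes), 5 in IMA3 OE (16.3%) and 5 in opt3-2 (18.4%). Limma called 0 members in IMA1 OE (0.34% of all genes called higher), 0 in IMA3 OE (0.194%) and 0 in opt3-2 (0.909%), with 0 (3.25% of all genes), 4 (4.26%) and 4 (6.34%) at an unadjusted p under 0.05. The handling-responsive genes had root medians of 0.31, 0.57 and 0.20, with 11, 11 and 9 of 11 above 0 (46.3%, 43.6% and 43.9% of all genes). Their part in the WRKY values was not tested.

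**Figure D4:**
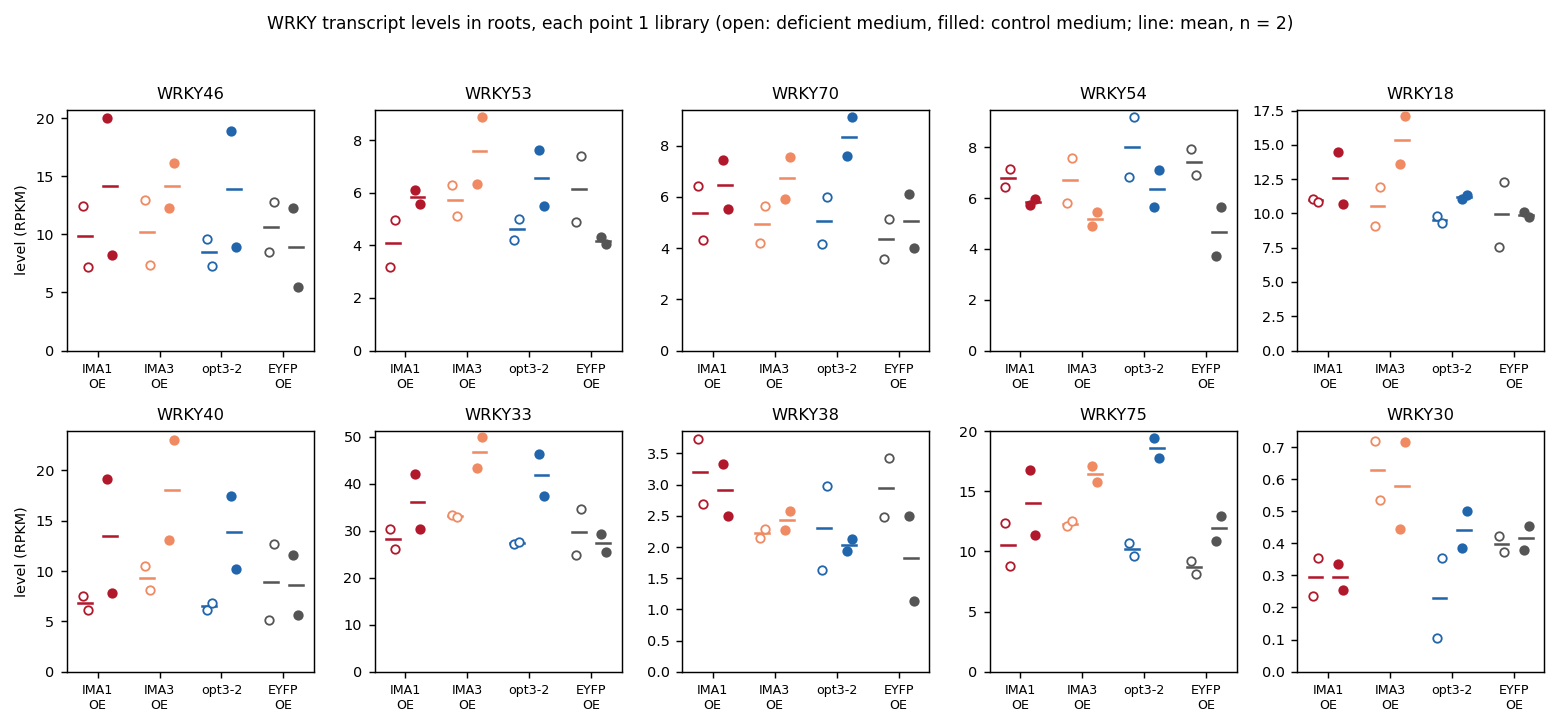
RPKM of each WRKY gene in roots (vertical axes, one panel a gene, starting at 0) by line, with open points for deficient and filled points for control medium, 1 point a library and a bar at the mean (n = 2). For WRKY33 both filled points of each line lie above those of EYFP OE at 29.3 and 25.5 RPKM, while for WRKY46 the lines overlap EYFP OE at 12.3 and 5.48 RPKM.

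In EYFP roots iron deficiency called 0 of the 9 members by limma (2.58% of all genes in either direction), with 3 at an unadjusted p under 0.05 (12.8%). These were WRKY54 with 7.93 and 6.89 RPKM on deficient medium against 3.71 and 5.65 RPKM on control medium, WRKY38 with 2.48 and 3.42 against 2.50 and 1.13 RPKM, and WRKY75 with 9.23 and 8.16 against 10.9 and 12.9 RPKM. The log2 fold changes were 0.66 (SE 0.20, adjusted p = 0.136), 0.66 (SE 0.30, adjusted p = 0.385) and -0.40 (SE 0.18, adjusted p = 0.374). WRKY54 and WRKY75 did not overlap between the media, while the nearest libraries of WRKY38 were 2.48 and 2.50 RPKM. WRKY46 was at 8.47 and 12.8 RPKM on deficient medium and at 12.3 and 5.48 RPKM on control medium, a log2 fold change of 0.35 (SE 0.50, adjusted p = 0.85).

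Within opt3-2 roots WRKY75 was at 10.7 and 9.63 RPKM on deficient medium against 19.5 and 17.7 RPKM on control medium, without overlap (log2 fold change -0.81, SE 0.18, adjusted p = 0.0717). WRKY33 was at 27.2 and 27.7 RPKM on deficient medium against 46.2 and 37.4 RPKM on control medium, with -0.58 (SE 0.18, adjusted p = 0.26). Over the 3 within-line responses in roots limma called 0 of 27 member values (0.891% of all gene values in either direction) and 4 were lower at an unadjusted p under 0.05 (3.37%). Between lines and EYFP on deficient medium limma called 0 of 27 (0.117%), with 2 in either direction at an unadjusted p under 0.05 (5.61%). These 2 were WRKY53, lower in IMA1 OE by -0.55 (adjusted p = 1), and WRKY75, higher in IMA3 OE by 0.52 (adjusted p = 0.426). In the 7 root comparisons that have a table, the authors' deposited table with adjusted p-values called 0 of 63 member values (0.349% of all gene values).

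Whether a line's response to deficiency differed from that of EYFP was tested as an interaction. Over the 6 interactions limma called 0 of 57 member values (0.109% of all gene values in either direction), with 7 at an unadjusted p under 0.05 (3.91%). The largest were in opt3-2 rosettes, at -2.08 for WRKY30 (SE 0.58, adjusted p = 1) and -1.65 for WRKY46 (SE 0.45, adjusted p = 1). In roots WRKY53 had -0.98 in IMA1 OE, -0.78 in IMA3 OE and -0.92 in opt3-2 (SE 0.34, lowest adjusted p 0.486). Responses within a line and interactions share control-medium libraries with the comparisons above, so they are not independent of them. Whether rosettes differed more from EYFP than roots did was tested across tissues on control medium, a comparison added after the data were seen. Limma called 0 of 27 member values (0.0707% of all gene values), with 5 higher in rosettes at an unadjusted p under 0.05 (1.56%). For WRKY46 the rosette difference exceeded the root difference by 1.37 in IMA1 OE (SE 0.60, adjusted p = 1), 0.71 in IMA3 OE (adjusted p = 1) and 1.41 in opt3-2 (adjusted p = 0.977).

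VTL1 (AT1G21140), the described target of WRKY46, passed the test in roots, where WRKY46 did not. On control medium it had 84.2 and 85.6 RPKM in IMA1 OE, 28.3 and 31.9 in IMA3 OE, 60.6 and 75.0 in opt3-2, and 14.4 and 34.3 in EYFP roots. On deficient medium it had 15.5 and 15.5 RPKM in IMA1 OE, 10.54 and 13.1 in IMA3 OE, 8.77 and 6.58 in opt3-2, and 13.2 and 7.15 in EYFP roots. VTL1 was highest in IMA1 OE and opt3-2 with iron present, and only EYFP control replicate 1 lay among the values on deficient medium. It fell on deficient medium within opt3-2 (log2 fold change -3.04, SE 0.34, adjusted p = 0.00169) and IMA1 OE (-2.38, adjusted p = 0.00446), was at -1.13 in EYFP (adjusted p = 0.147), and rose in IMA1 OE against EYFP on control medium (1.89, adjusted p = 0.0483). The last call ended without EYFP control replicate 1 (adjusted p = 0.294) and without IMA1 OE control replicate 1 (0.333) or 2 (0.163), and in 7 of 13 alternatives in all, at adjusted p up to 0.647. For VTL1 in IMA1 OE against EYFP roots on control medium the authors' deposited table gave a call (adjusted p = 6.14e-06). The VTL1 calls within opt3-2 and within IMA1 OE were kept in 13 of 13 alternatives. WRKY46 in the same roots had -0.57 within opt3-2 (adjusted p = 0.854) and -0.39 within IMA1 OE (adjusted p = 0.999). In rosettes no VTL1 value passed the test: on control medium it was at 1.06 in IMA1 OE (adjusted p = 0.417), 0.43 in IMA3 OE (adjusted p = 1) and 0.73 in opt3-2 (adjusted p = 0.607) against EYFP, and on deficient medium at 1.71 in IMA1 OE (adjusted p = 0.0515).

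Among the rest of the WRKY family, WRKY62 and WRKY45 passed the test in roots. Of 57 other WRKY genes 44 were tested in roots and 37 in rosettes. In rosettes limma called 0 in the comparisons of lines and media (0.338% of all genes in the EYFP response). In the EYFP response of roots it called 1 of 44 (2.58% of all genes in either direction). In opt3-2 against EYFP roots on control medium 1 was higher (0.909% of all genes called higher). Of all gene values, 0.891% were called over the 3 within-line responses in roots and 0.117% between lines and EYFP roots on deficient medium. Over the 6 interactions the share was 0.109%. WRKY62 (AT5G01900), the partner of WRKY38, had 2.65 and 2.65 RPKM on deficient against 0.139 and 0.274 RPKM on control medium in EYFP roots. It rose by 2.18 (SE 0.20, adjusted p = 8.95e-05), and also within opt3-2 (1.79, adjusted p = 0.00169) and IMA1 OE (1.58, adjusted p = 0.00213). On deficient medium it had 0.51 and 0.75 RPKM in IMA3 OE against the EYFP values above and was lower (-1.46, adjusted p = 0.0252), a call that ended without EYFP deficient replicate 1 (0.109) or 2 (0.193) or IMA3 OE deficient replicate 1 (0.0699). It also ended with a pseudocount of 0.1 (0.113) and with the spread of the compared libraries only (0.384), and the authors' deposited table did not give it (adjusted p = 1). The authors' deposited table with adjusted p-values did not call WRKY62 in EYFP roots (adjusted p = 1), and the calls within opt3-2 and IMA1 OE ended when the spread was taken from the compared libraries only (adjusted p = 0.0912 and 0.133). WRKY45 (AT3G01970), like WRKY75 known from phosphate starvation, had 9.35 and 11.6 RPKM in opt3-2 roots against 4.16 and 4.13 RPKM in EYFP roots on control medium. It rose by 1.22 (SE 0.13, adjusted p = 0.000479), a call that held without any 1 library and ended when the spread was taken from the compared libraries only (0.0541). The authors' deposited table did not call it (adjusted p = 1). Within opt3-2 it fell by 0.90 on the log2 scale on deficient medium (5.12 and 5.30 RPKM, adjusted p = 0.00668). That call ended without opt3-2 control replicate 2 (0.0861), deficient replicate 1 (0.0608) or deficient replicate 2 (0.0547), and when only the compared libraries gave the spread (0.113). Its response in opt3-2 minus that in EYFP was -1.08 (SE 0.18, adjusted p = 0.0287), a call lost in 9 of 16 alternatives. Of the 17 defence genes of the list of 23 that were tested in roots, 1 was called in the EYFP response (2.58% of all genes in either direction). It was MPK6, a kinase upstream of WRKY33 (0.25, adjusted p = 0.0415). The call ended without any 1 of the 4 libraries (log2 fold change then 0.198 to 0.305), and in 7 of 13 alternatives in all. For MPK6 the authors' deposited table did not give a call (adjusted p = 1).

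Across the 16 libraries of a tissue the members varied together to different degrees. These correlations of log2(RPKM + 0.5) describe the libraries, which share lines, media and handling. In rosettes the 45 pairs of members had a median Pearson r of 0.60, and 43 were above 0. WRKY46 was closest to WRKY53 (r = 0.89), WRKY33 (0.88) and WRKY40 (0.84) there, and least close to WRKY38 (0.45). Of all tested genes 0.22%, 0.225% and 0.702% had a higher r with WRKY46 than WRKY53, WRKY33 and WRKY40 had. For WRKY18 and WRKY38 these shares were 9.87% and 10.2%. In roots the 36 pairs had a median r of 0.51, with 28 above 0, and WRKY46 was closest to WRKY40 (0.86) and WRKY33 (0.77), while WRKY54 ran against it (-0.47). The shares of genes with a higher r were 0.117% for WRKY40 and 0.554% for WRKY33. They were 5.59% to 14% for WRKY53, WRKY18, WRKY70, WRKY75 and WRKY38. Pairs among all genes were not computed. Over all tested genes, the 5 most like WRKY46 in rosettes were ATAF2 (0.95), NAC036 (0.95), LYK5 (0.95), BCS1 (0.94) and ADT4 (0.92). In roots they were JAZ1 (0.95), AT3G54200 (0.94), AR781 (0.93), GRX480 (0.93) and CZF1 (0.92).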

How the data were processed

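Poly-A RNA was sequenced from 32 libraries with a stranded kit, per the labels. Per the submitters' processing notes, bcl2fastq 1.8.4, Trimmomatic 0.35, Bowtie2 2.0.6, edgeR 3.12.1, limma 3.26.9 and build TAIR10 were used. The authors deposited 26 pairwise tables with a value per gene and library, read here as RPKM from the values, since no header names the unit. The tables also hold the authors' p-value (a Z-test, per the file headers) and a log2 fold change deposited per gene. Sorted values are nearly equal across the 4 libraries of a table, as after an equalising step that the sources used here do not describe, so differences are relative to the other genes. Depth is unknown.

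Tests used log2(RPKM + 0.5) for genes with a tissue mean of at least 0.5 RPKM, with fold changes from the comparison's own table. The spread came from all 16 libraries of a tissue (8 residual degrees of freedom), moderated with limma 3.58.1 in R 4.3.3 (squeezeVar, trend on level), because each group has 2 libraries. P-values were 2-sided, adjusted by Benjamini-Hochberg over all genes tested, and called under 0.05. No deposited table holds both media of IMA1 OE, IMA3 OE or opt3-2, so those responses were joined through EYFP control. Levels are averages of a library over its tables (at most 0.096 apart, log2). P-values that the authors deposited were adjusted over the same genes. The procedure was tested on simulated data for the comparison of opt3-2 with EYFP roots on control medium only. Rosettes, joined responses, interactions and the comparison across tissues were not simulated.

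All members are named. Genes of the other lists are named with values where they passed the test, with SIB1 as the stated exception; a few more are named without values as examples of what a list holds. Members and lists were chosen with earlier results of these data known. The alternatives were other pseudocounts, filters, spreads and tables, a replicate block, the authors' p-values and leaving out each library.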

Additional observations from a re-analysis of the deposited data

How the results depend on the processing

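Over 29 comparisons all counts of called members but 1 were 0, so that 388 of 404 recomputed counts being unchanged says little about stability. Of 3956 recomputed values of single genes, 43 lost a call, 14 gained one, 0 called values changed sign and 181 uncalled values did. Rosettes of opt3-2 against EYFP on control medium gave 1 call (WRKY46), but 0 with no filter on low values, 0 with the spread of the 4 compared libraries only and 0 to 1 when libraries were left out. The WRKY46 fold change there kept its direction, from 1.67 to 2.39. IMA1 OE against EYFP rosettes on deficient medium gave 0 to 1 calls when libraries were left out. With the replicate block there were 2 calls in opt3-2 against EYFP rosettes on control medium (WRKY46 and WRKY30), 1 in IMA1 OE against EYFP rosettes on control medium (WRKY46), 1 within opt3-2 rosettes (WRKY30), 1 within opt3-2 roots (WRKY75) and 1 in the EYFP response of roots (WRKY54). Between 2 compared groups, the differences of replicate 1 from replicate 2 correlated at 0.167 to 0.566 in rosettes and 0.072 to 0.483 in roots. The labels do not say that equal numbers pair libraries, and each comparison of 2 groups has 2 pairs. Whether libraries of equal number share a batch was not tested. The authors' deposited table gave 3, 1 and 2 calls in IMA1 OE, IMA3 OE and opt3-2 rosettes on control medium, and 2 in IMA1 OE and 1 in opt3-2 on deficient medium. The cause of these differences was not tested. With 2 libraries a group and unknown depth, an uncalled difference is not shown to be absent.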
